A study of Bos taurus with 30 samples.

Results

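MHC class II molecules present peptides from outside the cell to helper T cells. Each is a pair of an alpha and a beta chain, and in cattle the classical pairs are DR and DQ. CD74, the invariant chain, binds newly made class II pairs and holds the peptide groove until they reach the compartment where peptide is loaded. Macrophages, dendritic cells and B cells are the usual carriers of these molecules, and in adipose tissue they sit among the adipocytes. DRB3 and the DQ genes are highly polymorphic in cattle, and DQ genes are duplicated on some haplotypes, whereas DRA varies little in sequence.

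The 5 genes described here were chosen by their Ensembl identifiers among the 24596 genes listed. They are BOLA-DRA (ENSBTAG00000010645), the alpha chain of DR, BOLA-DRB3 (ENSBTAG00000013919), its beta chain, BOLA-DQA5 (ENSBTAG00000009656), an alpha chain of DQ, BOLA-DQB (ENSBTAG00000021077), a beta chain of DQ, and CD74 (ENSBTAG00000015228). A value above 1 in at least 15 libraries was required for the test across genes. BOLA-DRA, BOLA-DRB3 and CD74 met this, with values above 1 in all 30 libraries, and are 3 of the 12738 genes tested. BOLA-DQB was above 1 in 10 libraries and BOLA-DQA5 in 14, so both fell outside the test across genes and are described from their reads in each calf. In the RefSeq gene table of the ARS-UCD2.0 assembly, used only for gene order, the DQ and DR genes follow each other as BOLA-DQA2, BOLA-DQB, BOLA-DQA5, BOLA-DQB1, LOC100848815, BOLA-DRB3, BOLA-DRB2 and BOLA-DRA.

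The libraries came from omental visceral adipose tissue of Angus x Holstein-Friesian crossbred heifers killed at 21 weeks of age, 1 library per calf. The high plane group (HI, 15 calves) was started on 10 litres (1.5 kg) of milk replacer daily, reduced in steps to weaning at the end of a calf phase of 8 weeks, with concentrates offered freely, then had free concentrates and hay for 11 weeks, towards a growth of 1.2 kg per day. The moderate plane group (MOD, 15 calves) was started on 4 litres (0.5 kg) of milk replacer, also reduced to weaning, with a limited concentrate allowance that was raised up to weaning, then had limited concentrates and hay, towards 0.5 kg per day. Calves are named by diet and number.

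Reads counted on genes ranged from 13269303 to 19383275 in HI calves and from 11847883 to 19364429 in MOD calves. A value is a TMM-normalized CPM, the reads of a gene per 1000000 reads of a library after its total was scaled by edgeR's TMM factor, and 3 reads were worth between 0.122 and 0.261. The libraries of 3 calves stood apart on the first principal component of the tested genes, which carried 36.7% of the variance. HI 2120 scored 167, MOD 975 scored 88.8 and MOD 911 scored 49.5, against -25.5 to 9.55 for the other 27 calves. HI 2120 also had the lowest TMM factor, 0.67, against 0.837 to 1.27 elsewhere. These calves were picked by their expression, which includes the genes described here, so values with and without them are given side by side. In bulk tissue, fewer cells of a type and less RNA per cell cannot be told apart, and markers of immune cells were not analysed here.

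BOLA-DRA, BOLA-DRB3 and CD74 had higher means in HI than in MOD calves, but none of the 3 was called between the diets with all 30 calves. A call required an adjusted p (Benjamini-Hochberg) under 0.05 together with a fold change above 1.5, and 4.36% of the 12738 genes were called higher in HI. By the adjusted p alone, 7.32% were higher in HI, and again none of the 3 was among them. All 3 had an unadjusted p under 0.05, as did 3508 of the tested genes.

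BOLA-DRA ranged from 169 to 742 in HI calves with a median of 311, and from 111 to 666 in MOD calves with a median of 196. The diets overlapped, with 14 of 15 HI calves above the MOD median and 1 HI calf above every MOD calf. The means were 326 ± 132 in HI and 242 ± 136 in MOD (SD, n = 15 each). The log2 fold change was 0.49 (SE 0.19, 95% interval 0.10 to 0.89, limma adjusted p = 0.0858), a 1.41-fold difference.

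BOLA-DRB3, the polymorphic partner of DRA, spread more widely between calves. It ranged from 30.6 to 217 in HI calves with a median of 92.7, and from 18.1 to 197 in MOD calves with a median of 52.6. Of the HI calves, 13 of 15 lay above the MOD median and 2 above every MOD calf. The means were 109 ± 60.7 in HI and 64.9 ± 46.7 in MOD (SD, n = 15 each). The log2 fold change was 0.80 (SE 0.31, 95% interval 0.17 to 1.42, limma adjusted p = 0.0802), a 1.74-fold difference. The SD left after the diet means was larger than in 94.0% of tested genes for BOLA-DRB3, against 68.8% for BOLA-DRA and 66.4% for CD74. Alleles of BOLA-DRB3 were not analysed here. In its values, a lower level of transcript and an allele whose reads are not counted on the reference gene cannot be told apart.

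CD74 ranged from 917 to 4283 in HI calves with a median of 1255, and from 584 to 2833 in MOD calves with a median of 922. Again 14 of 15 HI calves lay above the MOD median and 1 lay above every MOD calf. The means were 1490 ± 804 in HI and 1111 ± 551 in MOD (SD, n = 15 each). The log2 fold change was 0.43 (SE 0.19, 95% interval 0.04 to 0.82, limma adjusted p = 0.132), a 1.35-fold difference.

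**Figure D1:**
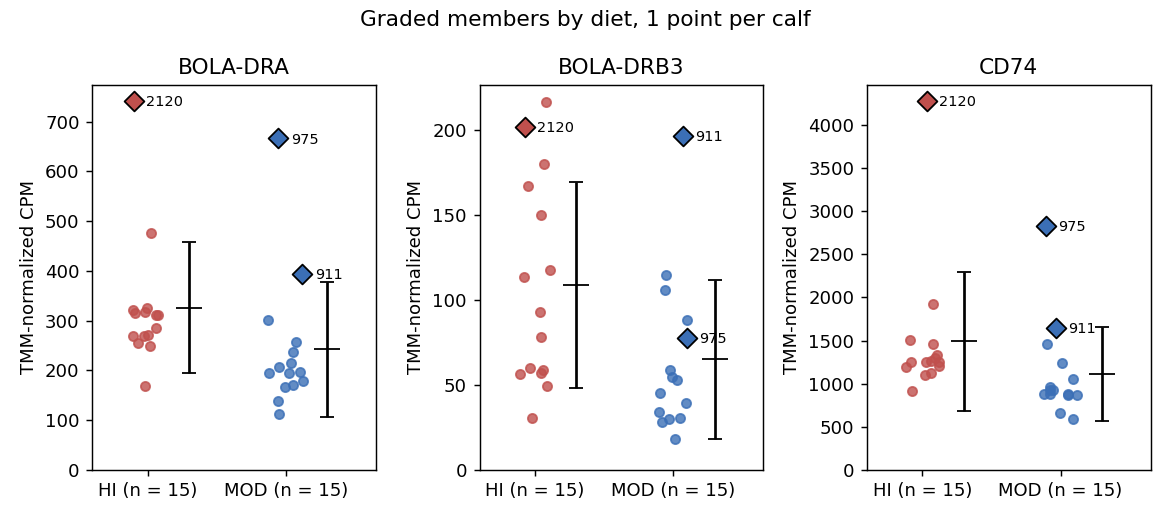
TMM-normalized CPM of BOLA-DRA, BOLA-DRB3 and CD74 on linear axes from 0, 1 point per calf, with the mean and SD of the 15 calves of each diet beside the points and calves 2120, 975 and 911 as diamonds. HI 2120 (742) and MOD 975 (666) are the highest calves of their diets for BOLA-DRA, and the diets overlap in every panel.

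The 3 calves that stood apart were also among the highest for these genes. HI 2120 ranked 1, MOD 975 ranked 2 and MOD 911 ranked 4 of 30 for both BOLA-DRA and CD74, and for BOLA-DRB3 they ranked 2, 14 and 3. Without them, all 3 genes were higher in HI at an adjusted p under 0.05, where 10.6% of tested genes were higher in HI. BOLA-DRA then had a log2 fold change of 0.59 (SE 0.13, limma adjusted p = 0.0019, 14 HI and 13 MOD calves). Its means were 296 ± 66.6 in HI and 197 ± 49.3 in MOD, and 13 of its 14 HI values exceeded the MOD median. BOLA-DRB3 had 0.90 (SE 0.29, limma adjusted p = 0.0278) with 13 of 14 HI calves above the MOD median, and CD74 had 0.48 (SE 0.11, limma adjusted p = 0.0040) with 14 of 14. With the fold change minimum, BOLA-DRA (1.51-fold) and BOLA-DRB3 (1.87-fold) were called and CD74 (1.39-fold) was not, against 4.63% of tested genes called higher in HI.

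Leaving out a single calf changed few of these calls by the adjusted p. Of 30 such fits, 1 passed for BOLA-DRA, 2 for BOLA-DRB3 and 1 for CD74. Without MOD 975, BOLA-DRA had a log2 fold change of 0.61 (limma adjusted p = 0.0141) and CD74 0.53 (limma adjusted p = 0.0321). BOLA-DRB3 passed without MOD 911 (0.93, limma adjusted p = 0.0306) and without HI 3620, its lowest HI calf (0.91, limma adjusted p = 0.0384). The scaling moved the size of the difference. With CPM from library size alone, the log2 fold changes were 0.30 for BOLA-DRA, 0.61 for BOLA-DRB3 and 0.24 for CD74, while the median over all tested genes moved from -0.02 to -0.19. Relative to that median, BOLA-DRA was higher by 0.51 with TMM and 0.50 with library size, BOLA-DRB3 by 0.81 and 0.80, and CD74 by 0.45 and 0.43. A new scale factor per library shifts all genes nearly alike. The likeness of these values therefore follows from the arithmetic and is no test of the scaling.

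**Figure D2:**
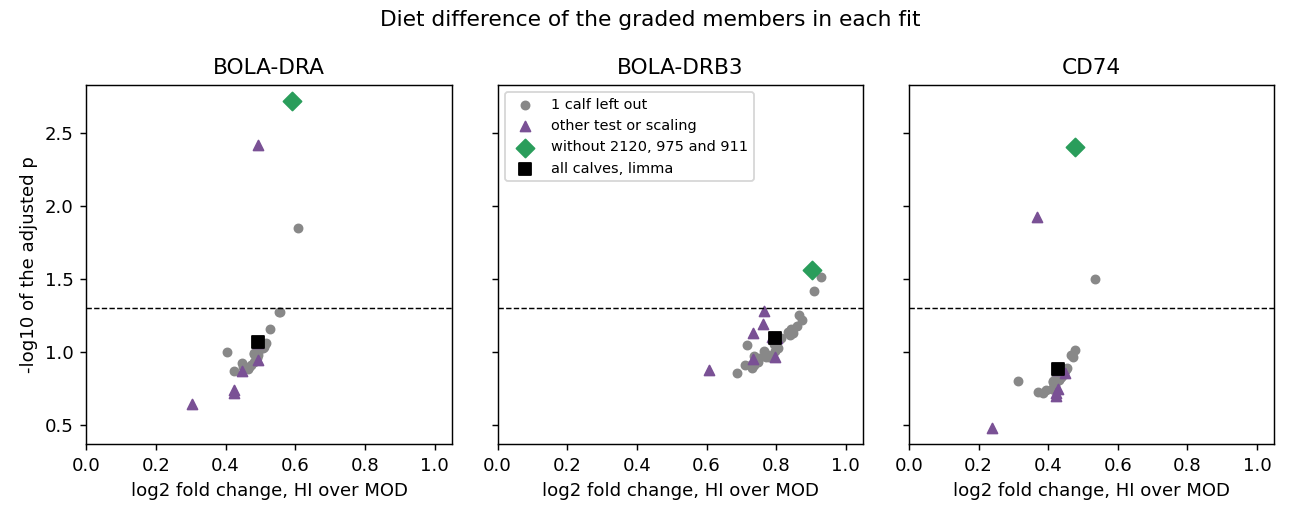
Log2 fold change, HI over MOD, against the -log10 of the adjusted p for each fit of BOLA-DRA, BOLA-DRB3 and CD74, with the dashed line at an adjusted p of 0.05. The black squares, with all calves, lie under the line in each panel, and the green diamonds, without calves 2120, 975 and 911, lie above it.

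The form of the variation over calves differed between the genes. A gene was described as on/off if its sorted log2(value + 0.5) had a gap of at least 2 with at least 3 calves on each side, or if at least 3 calves lay under 1 while the median was over 10, and as graded otherwise. BOLA-DRA, BOLA-DRB3 and CD74 were graded, with largest gaps of 0.48, 0.61 and 0.60. BOLA-DQB was on/off, with a gap of 3.16 between 20 calves at or under 0.0651 and 10 calves at or above 4.54. Of the 19170 genes with a read, 31 (0.162%) met this description. Genes with low values in all calves are counted in that share, although they could not reach such a gap with 0.5 added.

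**Figure D3:**
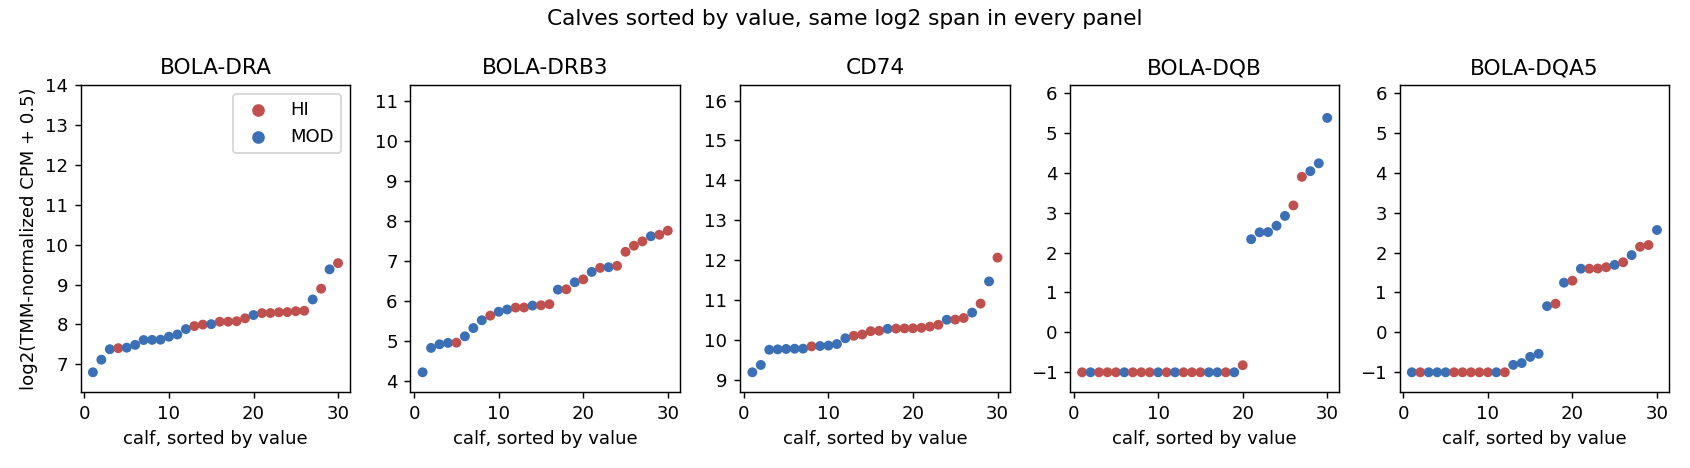
Log2(TMM-normalized CPM + 0.5) of the 30 calves sorted by value within each gene, with the same log2 span on every vertical axis, HI in red and MOD in blue. BOLA-DRA, BOLA-DRB3 and CD74 form slopes, BOLA-DQB forms a step after the lowest 20 calves, and BOLA-DQA5 forms a lower step after 16 calves.

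BOLA-DQB, a beta chain of the DQ pair, had 0 reads in 19 calves and 1 read in HI 1050. In the remaining 10 calves it had between 76 and 650 reads. The 2 HI calves with reads above that background were HI 2528 (206 reads, value 14.4) and HI 3620 (159 reads, value 8.57). The 8 MOD calves were 975, 1057, 1392, 1689, 1690, 2532, 2551 and 3622, with values from 4.54 to 41.0 and a median of 6.46. MOD 975 was the highest of all 30 calves, and 2 of the 3 calves that stood apart, HI 2120 and MOD 911, had 0 reads. A count of 0 allows up to 3 reads, and the lowest of the 10 calves had 76.

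BOLA-DQB was above 1 in 2 of 15 HI calves (13.3%, exact Clopper-Pearson 95% interval 1.66 to 40.5%) and in 8 of 15 MOD calves (53.3%, 26.6 to 78.7%). The two-sided Fisher's exact test gave p = 0.0502, or 0.151 after Benjamini-Hochberg adjustment over the 3 such tests made, all of them chosen after the values were seen. The mean log2(value + 0.5) was 1.69 lower in HI, from -0.38 in HI and 1.31 in MOD (two-sided permutation test, p = 0.0364). Adjusted over the 19170 genes with a read in a limma fit with no filter, the same difference had an adjusted p of 0.140. Leaving out calves 2120, 975 and 911 gave a log2 difference of -1.51 (permutation p = 0.0627), and for the on-count 2 of 14 HI calves against 7 of 13 MOD calves (Fisher's exact p = 0.0461). With all calves the unadjusted p of BOLA-DQB lay on either side of 0.05 by the 2 tests, and neither adjusted value passed. Both tests treated the calves as independent, and their sires are not in the labels. Leaving out any of MOD 975, 1392, 1689, 1690 or 2551 brought the permutation p above 0.05, to between 0.0511 and 0.0666. Leaving out either HI calf with BOLA-DQB lowered it, to 0.0103 without HI 2528 (log2 difference -1.99) and 0.0110 without HI 3620 (-1.94).

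BOLA-DQA5, an alpha chain of the DQ pair, was graded by the description above, since its largest gap was 1.19, although its reads fell into separate ranges. That gap lay between values of 0.189 and 1.08, where the 0.5 added to each value narrows it. The label graded therefore depends on that setting. Of the 30 calves, 12 calves had 0, 4 calves had between 1 and 4 (MOD 911, 1057, 2551 and 1392), and 14 calves had between 17 and 86. In the 8 HI calves above 1, values ran from 1.14 to 4.06 with a median of 2.57. In the 6 MOD calves above 1, they ran from 1.08 to 5.42 with a median of 2.63. The share of calves above 1 was 53.3% in HI and 40.0% in MOD (Fisher's exact p = 0.715). The mean log2(value + 0.5) was 0.26 higher in HI (two-sided permutation test, p = 0.596).

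The DQ genes were not above 1 in the same calves. Both were above 1 in 3 calves, BOLA-DQB alone in 7, BOLA-DQA5 alone in 11 and neither in 9 (Fisher's exact p = 0.260). HI 3620, MOD 975 and MOD 2532 were the calves with both. Neither reads of near-identical DQ copies nor genotypes were analysed here, so a missing gene, an allele whose reads are not counted on the reference gene and a gene without transcript cannot be told apart in the calves at 0.

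Among the graded genes, BOLA-DRA and CD74 varied together from calf to calf. Pearson's r of their log2 values was 0.96 and Spearman's rho 0.94 over 30 calves (both permutation p = 1e-05, the smallest that 100000 resamples can give; adjusted p = 3e-05 over 3 pairs). Within diets r was 0.94 in HI and 0.97 in MOD. Leaving out HI 2120 and MOD 975, the calves farthest from the BOLA-DRA median, r was 0.95. The ratio of CD74 to BOLA-DRA in a calf spanned 1.55-fold over the 30 calves, while each gene alone spanned 6.68-fold (BOLA-DRA) and 7.33-fold (CD74). The SD of the log2 ratio was 0.17 in HI and 0.16 in MOD.

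BOLA-DRB3 followed its partner chain more loosely. Its r with BOLA-DRA was 0.61 and rho 0.64 (permutation p = 0.00030 and 0.00018, adjusted p = 0.00035 and 0.00027), and its r with CD74 was 0.60 and rho 0.63 (permutation p = 0.00035 and 0.00029, adjusted p = 0.00035 and 0.00029). Without the 2 calves farthest from the median of the first gene of each pair, r was 0.63 and 0.49. Within HI calves, r with BOLA-DRA was 0.49 (permutation p = 0.0572) and rho 0.53 (permutation p = 0.0461, adjusted p = 0.0461), on either side of the threshold. Within MOD calves r was 0.56 (permutation p = 0.0296, adjusted p = 0.0444) and rho 0.66 (permutation p = 0.0090, adjusted p = 0.0135). Without MOD 911 and MOD 975 the r within MOD was 0.44 and no longer passed (permutation p = 0.133, 13 calves). The relation of BOLA-DRB3 with CD74 gave r = 0.53 within HI and 0.52 within MOD (permutation p = 0.0287 and 0.0474), with rho 0.66 and 0.50 (permutation p = 0.0089 and 0.0606). Without MOD 2532 and MOD 911 the r within MOD was 0.43 and no longer passed (permutation p = 0.136).

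The ratio of BOLA-DRB3 to BOLA-DRA spanned 5.30-fold over calves, lowest in HI 3620 and highest in HI 1531. The SD of that log2 ratio was 0.75 in HI and 0.77 in MOD. Among the 10 calves with BOLA-DQB above 1, its ratio to BOLA-DRA spanned 3.25-fold, lowest in MOD 2532 and highest in MOD 1689. Among the 14 calves with BOLA-DQA5 above 1, its ratio to BOLA-DRA spanned 4.22-fold, lowest in HI 1048 and highest in MOD 981. These ratios compare calves, not the levels of genes of different length.

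**Figure D4:**
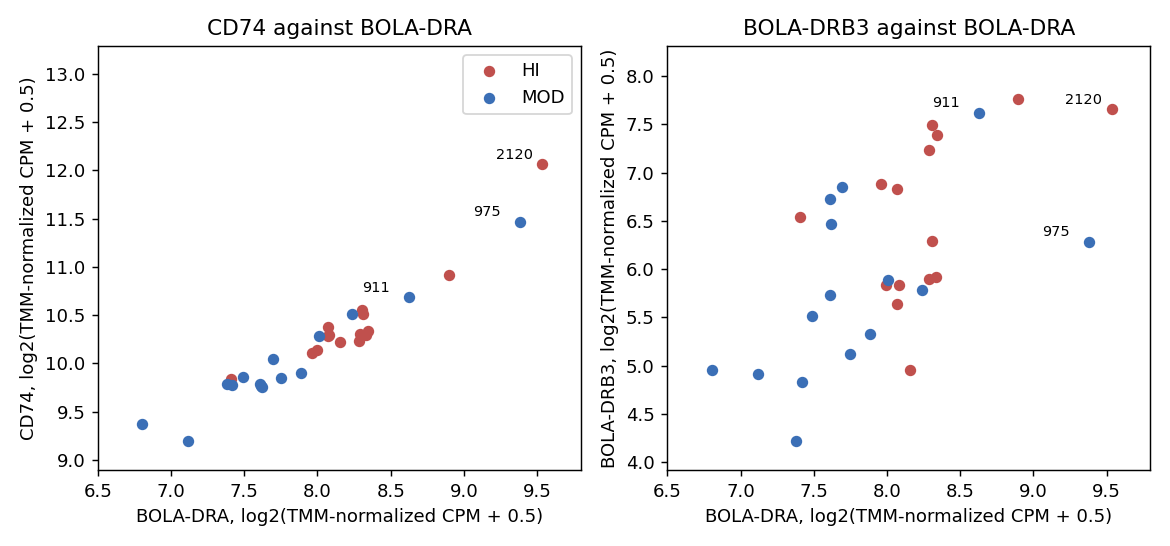
Log2(TMM-normalized CPM + 0.5) of CD74 (left) and BOLA-DRB3 (right) against BOLA-DRA, 1 point per calf, HI in red and MOD in blue, with calves 2120, 975 and 911 named and equal log2 spans on both vertical axes. CD74 lies along a narrow line (r = 0.96) and BOLA-DRB3 scatters widely (r = 0.61).

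Likeness to other genes was measured as Spearman's rho over the 30 calves after each diet mean was subtracted, as a description with no test. The comparison covered 12704 genes. BOLA-DRA and CD74 were each other's closest gene (rho 0.87), but other genes came near. The closest to CD74 outside the 5 genes described here had a rho of 0.82, and the next 0.79. The closest other gene to BOLA-DRA was ENSBTAG00000018706 (rho 0.83, the next gene being at 0.77). Genes are listed by identifier alone, so its name was not looked up. The closest gene to BOLA-DRB3 had a rho of 0.69 and the closest to BOLA-DQA5 a rho of 0.63. BOLA-DQB was closest to ENSBTAG00000038128 (rho 0.80, the next gene being at 0.56), whose name was not looked up either. That gene was above 1 in 13 calves, at 5.20 to 14.4. These included all 10 calves with BOLA-DQB and also HI 1048, HI 1089 and MOD 911.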

How the data were processed

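Visceral adipose RNA of 15 HI and 15 MOD calves was sequenced. The authors trimmed reads with Cutadapt, aligned them to UMD3.1 with STAR, counted reads per gene with its quantification mode, which keeps uniquely aligned reads, and normalized with edgeR's TMM. The deposited values are a signal, the TMM-normalized CPM, without a filter on low values. Whole reads were recovered from them (100% within 0.01 of a read).

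Because the values are normalized, limma 3.58.1 with a trend on log2(value + 0.5) was the main test, and the study's exact test an alternative, with edgeR 4.0.16, DESeq2 1.42.0 and limma-voom on the recovered reads, other pseudocounts (0.1 and 1), scaling by library size, no filter, and calves left out. A fold change on this scale understates low genes. The limma, edgeR, DESeq2 and limma-voom tests, but not the permutation and Fisher's tests, were tried on simulated counts. Permutation tests drew 100000 resamples (SciPy 1.17.1).

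The members and lists were chosen with earlier results of these data known. All 5 members were named. The DQ genes failed the filter, so a permutation test replaced the planned limma fit for them. Of 10 planned pairs, the 3 without a DQ gene were correlated. BOLA-DQA5, graded by the fixed rule, was left out after its reads were seen. The planned ratios to DQ genes were limited to calves above 1. The planned rule for other genes needed symbols, so the 2 genes given by identifier alone were picked after their values were seen. The 15 gene lists (141 symbols, cell type markers included), promoters and protein sequences were not analysed here, since genes are listed by identifier alone. The paper states that calves were blocked by age, bodyweight and sire, and that diets were allocated within blocks. The labels hold no block, so none was fitted. P-values judge a difference or an association against the spread between calves taken as independent. They do not account for likeness within a block or between calves of the same sire.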

Additional observations from a re-analysis of the deposited data

How the results depend on the processing

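In the main fit BOLA-DRA, BOLA-DRB3 and CD74 were higher in HI, with an adjusted p above 0.05. Their sign held in every fit, so a call by adjusted p could change only by passing the threshold. With limma-voom and quality weights, BOLA-DRA had a log2 fold change of 0.49 (adjusted p = 0.0038) and CD74 0.37 (adjusted p = 0.012), while BOLA-DRB3 stayed above 0.05 (adjusted p = 0.0530). That fit put 3891 of 12738 genes under an adjusted p of 0.05 in either direction, against 1790 in the main fit. Without calves 2120, 975 and 911 the log2 fold changes were 0.59 for BOLA-DRA, 0.90 for BOLA-DRB3 and 0.48 for CD74, and for BOLA-DQB -1.51. For BOLA-DQB, limma with no filter gave -1.69 (adjusted p = 0.140), and the difference in calves above 1 was -5 without those calves, against -6 with all; that alternative was chosen after seeing the data. For each of these the cause was not tested. The edgeR quasi-likelihood and exact tests, DESeq2, both pseudocounts, library size and no filter left BOLA-DRA, BOLA-DRB3 and CD74 uncalled. The count tests gave the DQ genes no value, because both failed the filter. Leaving out each calf in turn gave 0.40 to 0.61 for BOLA-DRA, 0.69 to 0.93 for BOLA-DRB3, 0.31 to 0.53 for CD74 and -1.99 to -1.40 for BOLA-DQB, where the permutation p was under 0.05 in 25 of 30 fits. The genes called numbered 856, 1790 with no fold change minimum, and 723 to 991 with 1 calf left out. Within HI, 2 of the 3 pairs of BOLA-DRA, BOLA-DRB3 and CD74 passed by Pearson's r, against 3 over all calves. Calves with few reads on the DQ genes limit those values. No analysis within the blocks of the design was possible, because the labels do not give the block of a calf.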
